A study of Homo sapiens with 2 samples.

Results

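The general transcription factors are the proteins that place RNA polymerase II at the start of a gene. The set described here holds 32 genes of the 60664 in the count files. They were chosen by name: TBP and its relative TBPL1, the TBP-associated factors (TAFs), the TFIIA, TFIIB, TFIIE, TFIIF and TFIIH subunits, and the CDK-activating kinase (CAK). The choice used no measured value but was made with earlier results of these data known, and all 32 matched a gene. RNA was measured by RNA-seq in 2 libraries of HEK293T, a human embryonic kidney line that carries the SV40 large T antigen, in a series on mapping R-loops. Both libraries were WT and untreated, so there was 1 group and no contrast between conditions. The cell line label of replicate 2 reads HEK294T, against HEK293T in its title. The labels do not tell whether 2 cultures were grown, so the spread given here may be technical. Total counts were 18011638 in replicate 1 and 18575058 in replicate 2. All 7 markers of HEK293-type lines were detected, at a summed 1180 and 1033 CPM (the standard depth-normalised unit, a gene's counts relative to all counts of its library). Detected markers of other cell types were 1 of 8 for differentiated kidney (LRP2, in a list summing to 3.11 and 4.14 CPM), 1 of 3 for fibroblasts (LUM, 1.94 and 1.35 CPM), 0 of 4 for blood and 0 of 3 for endothelium. AQP2, CD3D, COL1A2 and TEK were at 0 in both. In bulk RNA, fewer cells with a transcript and less of it per cell cannot be told apart.

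In the textbook order of assembly, TFIID, which is TBP with its TAFs, binds the core promoter, and TFIIA steadies it there. TFIIB then joins and recruits the polymerase, which arrives with TFIIF. TFIIE brings in TFIIH, whose translocase opens the DNA and whose kinase module, CAK, phosphorylates the polymerase tail. Many TAFs pair through a histone fold, and several of them also serve in SAGA, a coactivator that modifies histones.

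A gene-level count can be trusted only as far as its reads are its own, and several members share sequence with other genes. GTF2H4 shared the most: 93.7% of the 50-base words in its longest coding transcript also occurred in transcripts annotated to VARS2. The share was 77.5% for GTF2H2, 40.8% for TBPL1, 31.4% for TAF10, 31.0% for TAF9 and 30.4% for TAF6. GTF2H2 is shown here because it shares its words with near-identical copies at another place rather than with a gene that overlaps it. GTF2H2, the p44 subunit of the TFIIH core, lies at chr5:71032670-71067689 on the minus strand of GRCh38. Its copy GTF2H2C lies at chr5:69560191-69595221 on the plus strand. Over their coding sequences of 1185 bases the GENCODE 29 transcripts were 99.7% identical, with 4 mismatches and no gap. The stretches below show coding positions 367 to 427, counted from 1 at the first base of the start codon, and the capital marks the first mismatch (A397G, the base of GTF2H2 first):
GTF2H2: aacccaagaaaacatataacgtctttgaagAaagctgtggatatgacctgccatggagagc
GTF2H2C: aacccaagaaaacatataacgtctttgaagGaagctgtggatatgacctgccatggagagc
The first 396 bases were identical, so a short read from that part could come from either gene. Of the 50-base words of GTF2H2, 62.1% occurred in GTF2H2C and 40.4% in GTF2H2B. How reads that align to several places were counted is not given in the sources used here.

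Transcripts of all 32 members were present in both libraries. Every member reached 1 CPM in both, as did 65.9% of the 19890 protein-coding genes. Member counts ran from 126 to 2969. Together the 32 genes took 0.140% ± 0.00838 of all counts (SD, n = 2, as for every ± below). The median member stood at 19.9 TPM (like CPM, but with each count first divided by the exon length of its gene), with 20.9 in replicate 1 and 19.7 in replicate 2. The protein-coding median was 2.88 TPM over all genes and 8.52 over those detected. Above the first lay 29 members and above the second 24.

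**Figure D1:**
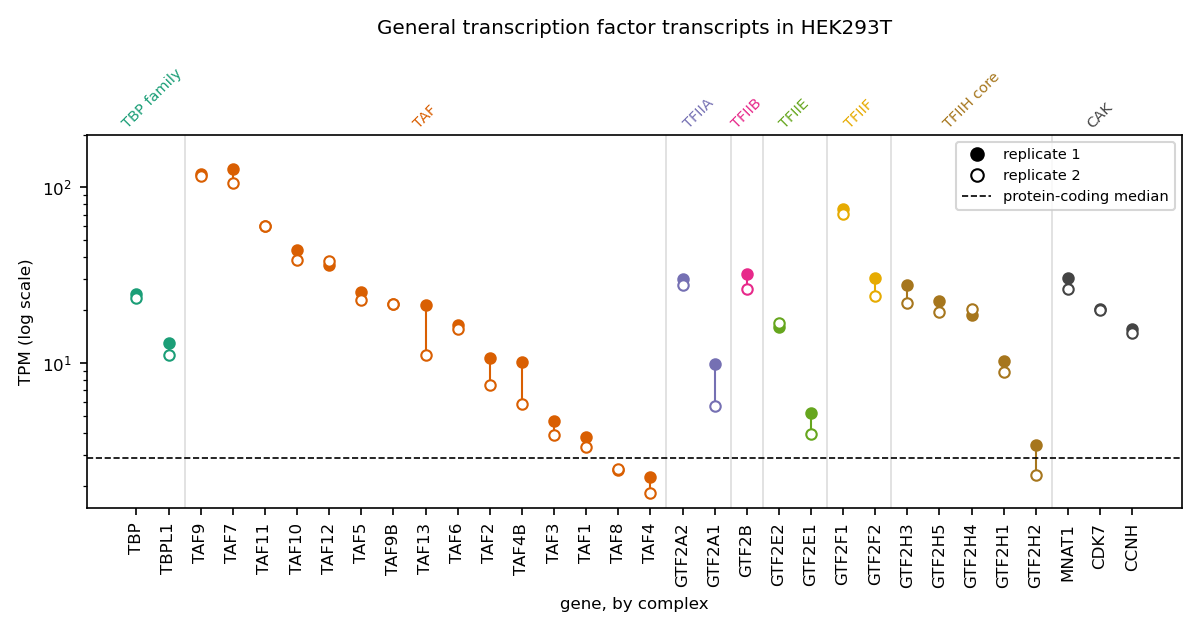
TPM on a log axis for each of the 32 genes, grouped by complex, with filled points for replicate 1 and open points for replicate 2 joined by a line, and the protein-coding median of 2.88 TPM dashed. TAF9 and TAF7 are the highest, TAF4 the lowest, and TAF13, GTF2A1 and TAF4B show the widest gaps between the libraries.

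The levels spanned a 57.9-fold range by TPM and a 20.2-fold range by CPM. Values above 100 TPM were reached by 2 members, 16 exceeded 20 TPM, 10 lay between 5 and 20, and 6 were under 5. The order of the members was nearly the same in both libraries (Spearman's rho 0.986 over 32 genes, a description across genes that share both libraries).

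TBP (chr6:170554302-170572870), which bends the DNA at the promoter and serves all 3 nuclear polymerases, had 498 and 514 counts in replicates 1 and 2. That gave 24.6 and 23.6 TPM, or 24.1 ± 0.725. TBPL1, a TBP relative that does not bind TATA boxes, had 573 and 526 counts and 13.04 and 11.1 TPM. Per length TBP was 2.00-fold above TBPL1, and the libraries did not overlap. In CPM the order turned, with 27.7 for TBP and 30.1 for TBPL1, the longer gene in the files (5039 bases against 2318). TBPL1 also shares 56.6% of its exonic bases with SLC2A12 on the opposite strand, a gene of 130 and 136 counts, so its level is uncertain.

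The 15 TAFs covered the whole range and held both the highest and the lowest member. TAF9 (chr5:69364743-69370013, minus strand), a histone-fold subunit, was the highest member at 119 and 116 TPM, from 2554 and 2683 counts. TAF7, which binds TAF1 and restrains it, had 127 and 106 TPM, from 2969 and 2663 counts. The means of 118 ± 2.07 and 116 ± 14.99 TPM did not differ beyond their spread. TAF9 shares 20.7% of its exonic bases with AK6, a gene for an adenylate kinase (2130 and 2259 counts), and 15.5% with RAD17 on the opposite strand.

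TAF11 followed at 60.4 ± 0.0907 TPM, then TAF10 at 41.3 ± 3.92 and TAF12 at 37.1 ± 1.5. All 3 are histone-fold subunits. The libraries of TAF10 (44.1 and 38.5 TPM) lay above those of TAF12 (36.0 and 38.1 TPM), but at the nearest by little. TAF10 is a member whose level depends on the choice of length. Its deposited length of 5820 bases was 4.79 times its longest coding transcript, and by that transcript it had 138 ± 12.4 TPM, beside TAF9 at 138 ± 1.7. It shares 40.8% of its exonic bases with ILK on the opposite strand, so its counts are uncertain too.

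**Figure D2:**
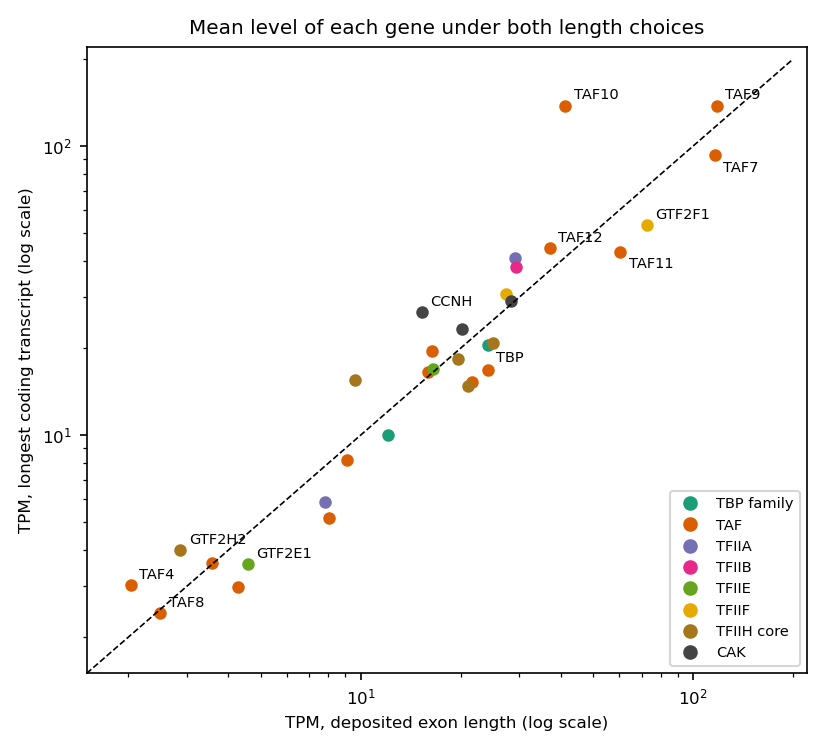
Mean TPM of each of the 32 genes with the deposited exon length on the x axis and with the longest coding transcript on the y axis, both log scales, with points coloured by complex and equal values dashed. TAF10 rises from 41.3 to 138 TPM, while most genes stay near the line.

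In the middle of the TAFs stood TAF5, a WD40-repeat scaffold (25.5 and 23.0 TPM), TAF9B (21.7 and 21.7), TAF13 (21.5 and 11.2) and TAF6 (16.4 and 15.6). TAF6 shares 24.9% of its exonic bases with AP4M1 on the opposite strand. TAF2, which contacts the initiator element, had 10.7 and 7.47 TPM. TAF4B, the TAF4 paralogue known from germ cells, had 10.1 and 5.88. For TAF13, TAF2 and TAF4B the gap between the libraries was wide compared with their neighbours.

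The lowest TAFs included the largest subunit and central scaffold genes. TAF3, whose PHD finger reads trimethylated H3K4, had 4.68 and 3.89 TPM. TAF1, the largest subunit, with bromodomains that bind acetylated histones, had 3.83 and 3.33. TAF8, which carries TAF2 and TAF10 into the complex, had 2.48 and 2.51 TPM. TAF4, the core scaffold, had 2.25 and 1.82 from 194 and 169 counts, and was the lowest member by the deposited length. TAF4 and TAF8 lay below the protein-coding median, and the other TAFs, 13 of 15, lay above it. The deposited lengths of TAF1 (11234 bases), TAF4 (9879) and TAF8 (9284) were the largest of the set. Without length correction TAF1 had 19.9 ± 1.36 CPM, TAF8 11.5 ± 0.446 and TAF4 9.94 ± 1.18, against 7.64 ± 1.2 for GTF2E1, which was then the lowest. With the longest coding transcript TAF8 was the lowest at 2.42 ± 0.0327 TPM, then TAF3 at 2.99 ± 0.375 and TAF4 at 3.03 ± 0.437. With the transcript of the longest coding sequence TAF3 and TAF4 were the lowest, at 2.74 ± 0.338 and 2.77 ± 0.395 TPM.

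TAFs that TFIID holds in a pair of copies (TAF4, TAF5, TAF6, TAF9, TAF10, TAF12 and the paralogues TAF4B and TAF9B) had a median of 23.0 TPM. The 7 TAFs held in a single copy had 9.11 TPM. By library these medians were 23.6 and 22.3 against 10.7 and 7.47. The ranges overlapped almost fully. They ran from 2.04 TPM (TAF4) to 118 (TAF9) for the pairs of copies, and from 2.50 (TAF8) to 116 (TAF7) for the single copies. The 4 TAF genes whose proteins also serve in SAGA (TAF9, TAF9B, TAF10 and TAF12) had a median of 39.2 TPM, with TAF9B lowest at 21.7, against 9.11 TPM for the 11 others, and 80.9 against 19.9 in CPM. Both groups overlapped in range, since TAF7 and TAF11 are not SAGA subunits. These splits are descriptions of 15 genes.

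TFIIA, the factor that steadies TBP on DNA, had unequal subunit genes. GTF2A1, which encodes the precursor cleaved into the alpha and beta chains, had 9.91 and 5.68 TPM. GTF2A2, the gamma chain, had 30.3 and 27.8. GTF2B, the single subunit of TFIIB, which bridges TBP and the polymerase, had 32.2 and 26.5 TPM from 709 and 628 counts. TFIIE showed the same kind of gap as TFIIA: GTF2E1, the alpha subunit, had 5.20 and 3.98 TPM and GTF2E2, the beta subunit, 16.2 and 16.9. In TFIIF, which escorts the polymerase, GTF2F1 had 75.2 and 70.2 TPM and GTF2F2 30.7 and 24.0. In TFIIA, TFIIE and TFIIF alike the libraries of the subunits did not overlap.

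By TPM the TFIIH core subunits lay closer together, apart from GTF2H2. GTF2H3, the p34 subunit, had 27.9 and 22.1 TPM, and GTF2H5, the small p8 subunit that stabilises the complex, had 22.6 and 19.5. GTF2H4, the p52 subunit that anchors the XPB translocase, had 18.9 and 20.4. The libraries of GTF2H3 overlapped those of GTF2H5, and those of GTF2H5 overlapped those of GTF2H4, so neighbours in this order did not differ beyond their spread. GTF2H3 and GTF2H4 did not overlap. GTF2H1, the p62 subunit, was lower at 10.3 and 8.88 TPM, and GTF2H2 lowest at 3.42 and 2.32. Apart from the place of GTF2H2, this order depended on the choice of length. The deposited length of GTF2H1 was 2.33 times its longest coding transcript. With the longest coding transcript of each gene, GTF2H1 had 15.6 ± 1.55 TPM, beside GTF2H5 at 14.8 ± 1.47. In CPM, GTF2H5 had 78.7, GTF2H3 49.3, GTF2H1 32.9, GTF2H4 22.7 and GTF2H2 12.3. GTF2H4 shares 79.7% of its exonic bases with ENSG00000288473 on the same strand, an entry of 1328 and 1412 counts, so its level is uncertain. The remaining TFIIH subunits are the helicase-type ATPases ERCC2 (XPD), at 12.01 ± 1.37 TPM, and ERCC3 (XPB), at 16.2 ± 0.611. By TPM both lay between GTF2H1 and GTF2H4. In CPM, ERCC2 at 41.3 and ERCC3 at 67.3 lay above GTF2H1 and GTF2H4. With the longest coding transcript the median of ERCC2 and ERCC3 was 24.0 TPM, against 18.4 for GTF2H4.

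The 3 CAK genes lay close together, yet their libraries did not overlap. MNAT1, the assembly factor, had 30.4 and 26.4 TPM. CDK7, the kinase, had 20.4 and 20.0. CCNH, its cyclin, had 15.7 and 14.8. Their order was not stable to the choice of length. CCNH, with a deposited length 2.5 times its longest coding transcript, had 45.2 CPM against 24.1 for CDK7, and it shares 12.9% of its exonic bases with RASA1 on the opposite strand. The TFIIH core and CAK genes together had a median of 19.9 TPM and the TAFs 16.3, a difference of -0.28 ± 0.33 log2 (TAFs minus TFIIH and CAK, on log2(TPM + 0.1)), smaller than its spread. It was 0.13 without replicate 2, and -0.72 without the 5 members that overlap other genes most, so neither its sign nor its size was stable.

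Of 15 pairs of partner subunits or paralogues, 11 differed by 1 log2 or more by TPM, and all 15 had 1 sign in both libraries. In 12 the sign held on 4 scales: TPM by the deposited length, CPM, and TPM by 2 choices of transcript. In 8 pairs the gap was 1 log2 or more on all 4. TAF4 lay 17.5-fold below its histone-fold partner TAF12 by TPM, and 4.3-fold below it in CPM. TAF6 lay 7.33-fold below TAF9 by TPM and 4.45-fold in CPM. TAF3 lay 9.47-fold and TAF8 15.9-fold below TAF10 by TPM, and 11.4-fold and 10.3-fold in CPM. With the longest coding transcript these gaps were 44.8-fold and 54.7-fold. With the transcript of the longest coding sequence they were 44.7-fold and 20.15-fold, so the size of the TAF8 gap depended on the transcript chosen. TAF11 was 3.88-fold above TAF13 by TPM and 5.49-fold above it in CPM. In these TAF pairs the gap was thus wide with and without length correction. TAF6, TAF9 and TAF10 share 28.5%, 27.6% and 53.6% of their exonic bases with other genes. The size of the gap is therefore uncertain in the pairs that hold them.

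**Figure D3:**
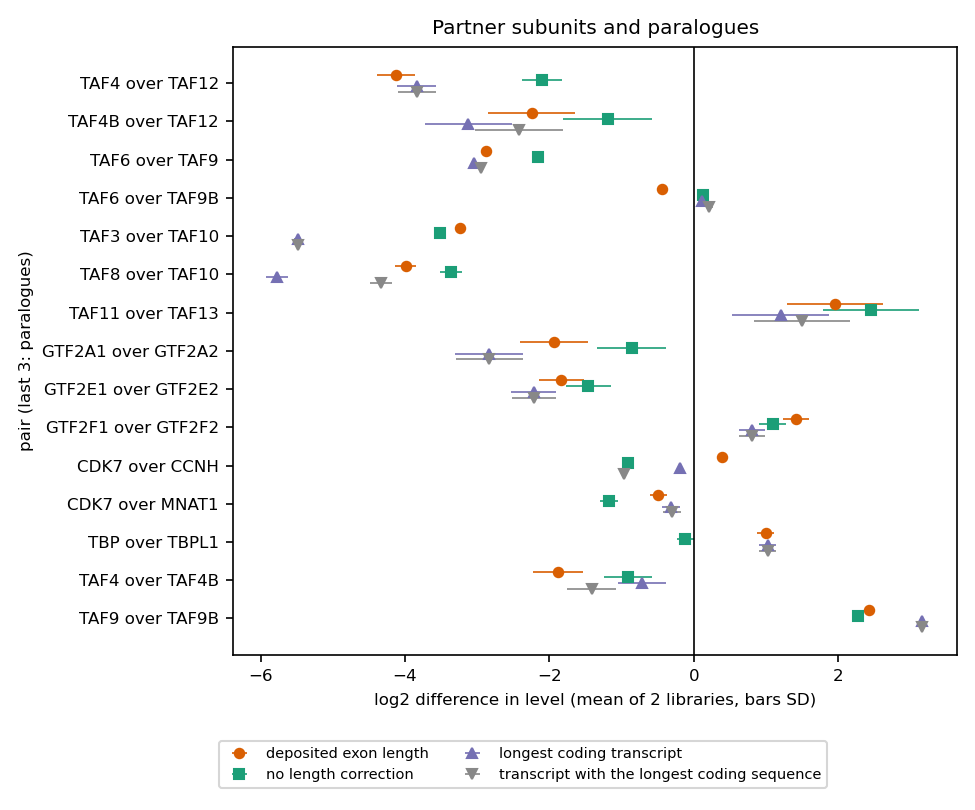
Log2 difference in level between the genes of 15 pairs (mean of both libraries, bars SD), with circles for TPM by deposited length, squares for CPM, and triangles for TPM by 2 transcript lengths. Most pairs stay on 1 side of 0 on every scale, while TAF6 with TAF9B, CDK7 with CCNH and TBP with TBPL1 cross it.

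Among paralogues, TAF9 was 5.41-fold above TAF9B by TPM and 4.86-fold in CPM. Their coding sequences were 79.4% identical, the longest identical run was 46 bases, and the longest coding transcript of TAF9B shared no 50-base word with TAF9. TAF4B was 3.68-fold above TAF4 by TPM and 1.88-fold in CPM. TAF4 had 10.8 and 9.1 CPM and TAF4B 24.0 and 14.5 CPM, so the libraries did not overlap on that scale either. With the longest coding transcript TAF4B was 1.64-fold above TAF4, and with the transcript of the longest coding sequence 2.665-fold. The size of this gap thus depended on the choice of length. Of 4 other paralogues known from germ cells, counts were at or near 0. TAF1L and TBPL2 had 0 counts in both libraries, where a count of 0 allows up to 0.167 CPM in replicate 1 and 0.162 in replicate 2. GTF2A1L had 1 and 3 counts, and TAF7L 8 and 18, or 0.707 ± 0.371 CPM. None of these 4 was detected at 1 CPM in both libraries.

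The members were close between the libraries, with a lean towards lower values in replicate 2. The median log2 ratio of replicate 2 over replicate 1 was -0.11 over the 32 members and 0.00 over the 14704 genes whose counts averaged 50 or higher. Below 0 lay 21 members, 65.6%, against 50% of those genes. With the scaling changed this was 20 with DESeq2 size factors and 23 with library totals. After centring the ratios on GC content it was 15, with a median of 0.01, so the lean was then gone. The 95% counting interval of the ratio lay below 0 for 11 members, 34.4% against 24.6% of the 14704 genes. It lay above 0 for 2, GTF2H4 and TAF12, 6.25% against 22.4%. These intervals narrow as counts rise, and the 14704 genes were not matched to the members by count, so the shares are not like for like. With 1 library on each side these ratios carry no p-value.

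At 0.5 log2 or more, 3 members were lower in replicate 2 and 0 were higher. None was lower by 1 log2, against 1.92% of the 14704 genes. The 3 are 9.38% of the set, near the 8.84% of the 14704 genes that were lower by 0.5, and 2.86% of those were higher. TAF13 (chr1:109062486-109076003) went from 263 to 147 counts, a log2 ratio of -0.84 (counting interval -1.15 to -0.56). GTF2A1 (chr14:81175452-81221377) went from 590 to 364 (-0.71, interval -0.90 to -0.52), and TAF4B (chr18:26226445-26391685) from 432 to 270 (-0.69, interval -0.92 to -0.47). GTF2H2 (-0.46) and TAF2 (-0.43) came next, just inside the 0.5 line.

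**Figure D4:**
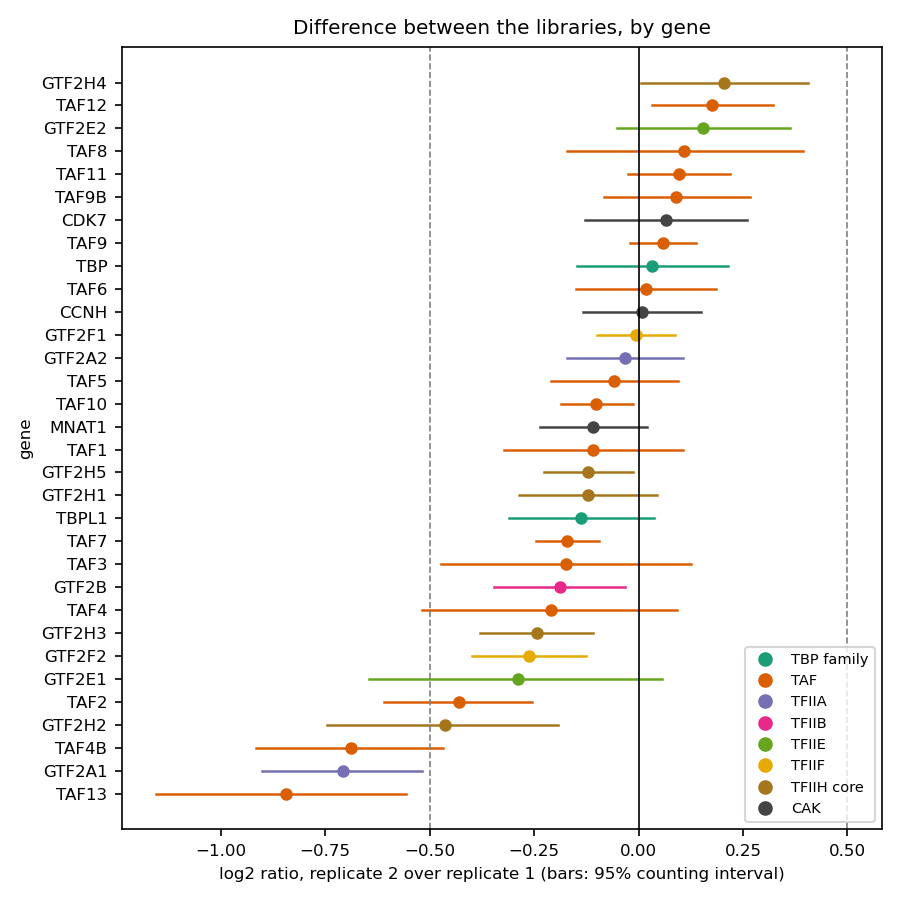
Log2 ratio of replicate 2 over replicate 1 for each of the 32 genes, ordered, with points coloured by complex and bars for the 95% counting interval; dashed lines mark 0.5 in each direction. TAF13, GTF2A1 and TAF4B lie beyond -0.5 and no gene lies beyond 0.5.

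Transcript GC content moved with these ratios. Across the 32 members Spearman's rho of ratio and GC content was 0.41, and across the 11974 of those genes with a GC value it was 0.48; these points share the same libraries. The members had a median GC content of 43.3%, from 35.2% in CCNH to 64.1% in TAF10, against 48.8% over those 11974 genes. TAF13 had 37.3% and GTF2A1 35.4%, while TAF4B, at 45.8%, lay above the members' median. After centring the ratios on GC content TAF4B (-0.67) was the 1 member still lower by 0.5. TAF13 was then at -0.47 and GTF2A1 at -0.21, and CCNH passed in the other direction at 0.50. After this step 5.93% of the 11974 genes with a GC value were lower and 1.43% higher by 0.5. This is a smaller set of genes than the one that gave the shares before centring.

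**Figure D5:**
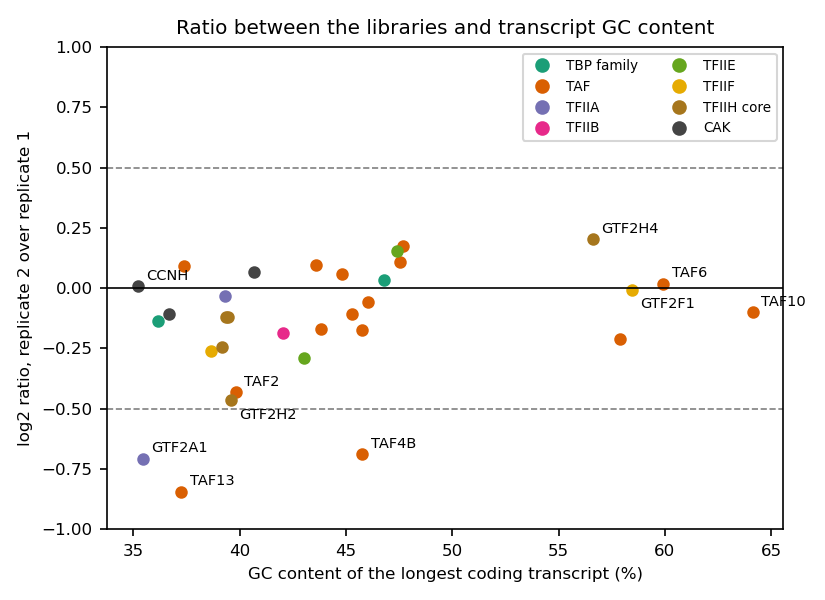
Log2 ratio of replicate 2 over replicate 1 against GC content of the longest coding transcript for the 32 genes, coloured by complex, with dashed lines at 0.5 in each direction. TAF13 and GTF2A1, at 37.3% and 35.4% GC, and TAF4B, at 45.8%, are the 3 genes below -0.5.

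The counts of GTF2H2 and its copies went in opposite directions. GTF2H2 had 259 and 189 counts, or 14.4 and 10.2 CPM. GTF2H2C had 142 and 180 counts and GTF2H2B 54 and 66; both copies together had a log2 ratio of 0.31 with a counting interval of 0.04 to 0.59. Summed, the gene and both copies had 455 and 435 counts, a log2 ratio of -0.08 with a counting interval of -0.27 to 0.11 that includes 0. Whether reads were exchanged between these near-identical genes was not tested.

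The machinery around these factors gave a scale for their levels. The 12 RNA polymerase II subunit genes had a median of 80.8 TPM, from POLR2A, the catalytic subunit, at 13.9 ± 0.0202 to POLR2L at 298 ± 21.3. Among genes that control TBP, DRAP1, a subunit of the NC2 repressor, had 184 ± 1.86 TPM, its partner DR1 14.3 ± 4.15, and BTAF1, the ATPase that strips TBP from DNA, 17.1 ± 1.31. The 16 SAGA genes, without the shared TAFs, had a median of 17.2 TPM, from ATXN7 (1.51 ± 0.436) to KAT2A, the acetyltransferase (47.3 ± 1.86). The 6 initiation factors of RNA polymerase I had 18.8 TPM, from TAF1B (6.98 ± 2.11) to UBTF (27.3 ± 0.0767). The 15 factors of RNA polymerase III and SNAPc had 14.4 TPM, from BDP1 (4.42 ± 1.38) to GTF3C6 (127 ± 4.56). By TPM the 32 members, at 19.9, were thus near the initiation factors of the other polymerases and below the polymerase II subunits. In CPM the members' median of 31.1 lay below all 3 lists. It was 44.4 for the polymerase I factors, 44.3 for the polymerase III and SNAPc factors and 117 for the polymerase II subunits.

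Between the libraries, 8.84% of all genes were lower in replicate 2 by 0.5 log2 and 2.86% higher. In these lists 0 of 12 polymerase II subunits were lower, 1 of 16 SAGA genes (KAT2B), 1 of 6 polymerase I factors (TAF1B), 1 of 15 polymerase III and SNAPc factors (BDP1) and 1 of 3 TBP regulators (DR1), and 0 were higher. Lists this short give no reading against the background. KAT2B, an acetyltransferase, went from 287 to 114 counts, a log2 ratio of -1.33 and a wider gap than that of any of the 32 members. The polymerase I factors had a median ratio of -0.28, against -0.11 for the members.

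The promoters were searched for short words known from housekeeping and regulated genes. RefSeq windows on GRCh38.p14, from 250 bases before to 50 after an annotated start, were at hand for 29 members and 15842 protein-coding genes. The word TATAAA on the sense strand, 15 to 45 bases before a start, occurred in 1 member, GTF2B (3.45% of members, 4.27% of all genes). The ETS core CCGGAAG, searched on both strands of the whole window, occurred in 11 members (37.9%, against 16.5% of all genes). The NRF1 motif occurred in 7 (24.1% against 9.66%), the YY1 word AANATGGCG, which can overlap the ETS core, in 4 (13.8% against 5.59%), and the CRE TGACGTCA in 2 (6.9% against 2.998%). The GC box GGGCGG occurred in 19 (65.5% against 64.3%) and CCAAT in 9 (31% against 42.1%). Members had 1.28 windows per gene and all genes 1.40, and the median GC content of the windows was 59.3% and 62.3%. In these shares all genes means the 15842 protein-coding genes, taken whether detected here or not, while every member was detected. A share among detected genes alone was not computed. A match is a description of letters, not a bound site. Shown here are the 120 bases before an annotated start, 5′ to 3′, for the 3 highest members by TPM with an ETS core in that stretch and at most 30 exonic bases in it, all on the minus strand, with the ETS core or its reverse complement in capitals: TAF9 (chr5:69369521-69369640), TAF12 (chr1:28643068-28643187) and GTF2A2 (chr15:59657516-59657635).
TAF9: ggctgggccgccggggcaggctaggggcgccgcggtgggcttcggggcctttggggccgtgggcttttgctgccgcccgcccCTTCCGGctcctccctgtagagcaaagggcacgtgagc
TAF12: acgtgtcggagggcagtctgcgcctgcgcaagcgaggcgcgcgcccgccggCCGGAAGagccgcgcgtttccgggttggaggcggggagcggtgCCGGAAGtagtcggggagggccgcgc
GTF2A2: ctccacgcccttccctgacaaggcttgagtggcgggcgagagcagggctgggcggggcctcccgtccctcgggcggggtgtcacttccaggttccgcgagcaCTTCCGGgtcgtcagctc
TAF12 held the core at 2 places, and TAF9 and GTF2A2 at 1. The TAF9 stretch holds 0 exonic bases and lies inside the counted gene (chr5:69364743-69370013). It comes before an internal start, not before the 5′ end of that gene.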

How the data were processed

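RNA-seq counts were deposited by the authors as whole numbers for each gene, with a separate file for either library. They were made with featureCounts 2.0.3 on GRCh38 after bcl2fastq 2.17 and Trim Galore 0.6.7, per the submitters' processing notes. Which aligner and annotation release were used, and how strand and shared exons were handled, is not given in the sources used here, so genes that share exonic bases are treated as uncertain. cDNA was primed with oligo(dT), per the labels' protocols, which favours RNAs with a poly(A) tail. Depth was 18011638 and 18575058 counts.

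CPM used library totals, and TPM the deposited exon lengths. Gene types, transcripts and GC content came from GENCODE 29, promoters from RefSeq, and exon overlap from bedtools 2.31.1. Ratios were scaled by TMM (edgeR 4.0.16; factors 1.01 and 0.989), with 2 as the prior count; DESeq2 1.42.0 size factors were an alternative. The TMM ratios were tried on simulated counts with a 10% coefficient of variation and no trend with GC content. That trial therefore does not cover such a trend. GC centring subtracted a running median over 501 genes ordered by GC content. Counting intervals are exact binomial at 95% and, like the limit of 3 counts for a count of 0, cover counting error only. No test was run, since the labels give 1 group. All members are named; of longer lists of other genes, the highest and lowest. The members, lists, pairs, motifs and length choices were chosen with earlier results of these data known.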

Additional observations from a re-analysis of the deposited data

How the results depend on the processing

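All 32 members were detected at 0.5, 1 and 5 CPM and in either library alone, 27 of them after leaving out those that overlap other genes by 25% or more. The members' median lay 2.75 log2 above that of protein-coding genes on log2(TPM + 0.1). It lay 1.84 above with CPM, 2.58 with the longest coding transcript, 2.50 with the transcript of the longest coding sequence (an alternative chosen after seeing the data), 2.43 with a pseudocount of 1, 1.21 against detected genes only, and 2.73 to 2.85 with 1 library left out. The TAF median minus the TFIIH and CAK median, -0.28 log2, ran from -0.34 to 0.13 with 1 library left out and was -0.72 without the 5 members whose exons overlap other genes over at least 25% of their length. The count of members lower by 0.5 fell from 3 to 1, and of those higher rose from 0 to 1, after centring on GC content, and neither changed with DESeq2 size factors, library totals, a prior count of 0.5, a mean count of 200 or no filter. In 3 pairs the direction turned with the length. TAF6 minus TAF9B was 0.13 log2 with CPM, 0.12 with the longest coding transcript and 0.22 with the longest coding sequence. CDK7 minus CCNH was -0.90, -0.19 and -0.97. TBP minus TBPL1 was -0.12 with CPM. No paired analysis was possible because the labels give a single group. Depth limits the low members most: GTF2E1, with 153 and 126 counts, had a ratio of -0.29 with a counting interval of -0.65 to 0.06.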
